A study of Ciona robusta with 6 samples.

Results

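A set of 98 gene models had high counts in Tyr control replicates 1 and 2 and in Rnf149 CRISPR replicate 3, and low counts in Tyr control replicate 3 and CRISPR replicates 1 and 2. The pattern crosses the guide groups. Members were chosen on CPM, the count of a model per 1000000 counts of its library. A mean of at least 10 CPM over the 6 libraries was required, and the lowest of the 3 high libraries had to be at least 2 times the highest of the 3 low ones. Of 17822 gene models, 8496 passed the CPM minimum, and 98 of these (1.15%) passed the ratio. Applied without CRISPR replicate 1 or CRISPR replicate 3, the rule found 196 and 203 models, and without each other library between 93 and 142. The high and low levels below were therefore chosen by the rule and are descriptions, and the split into high and low libraries comes from measured values and not from the labels.

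RNA came from dissociated embryos of Ciona robusta, a sea squirt, at 20 h after fertilization. The design set CRISPR/Cas9 mutagenesis of Rnf149 in the cardiopharyngeal lineage against control embryos, whose titles name Tyr, with 3 libraries in each group. For each library, 1000 cells were sorted and cDNA was made from between 250 and 2000 pg of total RNA. The sources used here do not give the marker of the sort, the promoter that drove Cas9, the guides or any pooling of embryos. Total counts ran from 18127682 to 22115917 per library.

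In tunicates, the cardiopharyngeal lineage is a small group of mesoderm cells whose progeny form the heart and the pharyngeal muscles of the siphons. Lineage cells are few among the cells of an embryo, so they are usually taken by cell sorting before RNA is measured. Rnf149 belongs to the RING finger proteins, many of which attach ubiquitin to other proteins. Counts from sorted cells are bulk values, in which fewer cells of a type and less RNA per cell cannot be told apart.

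Identifiers stand without gene names in the deposited table. No model (0 of 17822), and so no member, had an identifier among the 21486 genes that RefSeq lists for this species. Members are therefore given by identifier, with no name, role or sequence, and neither the edited gene nor markers of other cell types were analysed here. Levels of different models are compared only as counts, since no lengths were used.

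The members took 7.13% of all counts in Tyr replicate 2, 2.57% in Tyr replicate 1 and 1.45% in CRISPR replicate 3. They took 0.428% in CRISPR replicate 1, 0.190% in Tyr replicate 3 and 0.166% in CRISPR replicate 2. The widest exact 95% binomial interval of these shares, that of Tyr replicate 2, ran from 7.12% to 7.14%. Counting error alone is covered by such an interval, since amplified reads are not independent molecules. The shares thus formed a graded series within the high libraries and within the low ones, and libraries of both guides stood on each side. Library totals did not follow the series, as the high libraries held 20771781, 21875639 and 19350064 counts for Tyr replicates 1 and 2 and CRISPR replicate 3, and the low ones 20820454, 18127682 and 22115917 for Tyr replicate 3 and CRISPR replicates 1 and 2. The number of models with a count also did not, with 16060, 15662 and 15873 on the high side and 15196, 16271 and 15752 on the low side, in the same order.

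**Figure D1:**
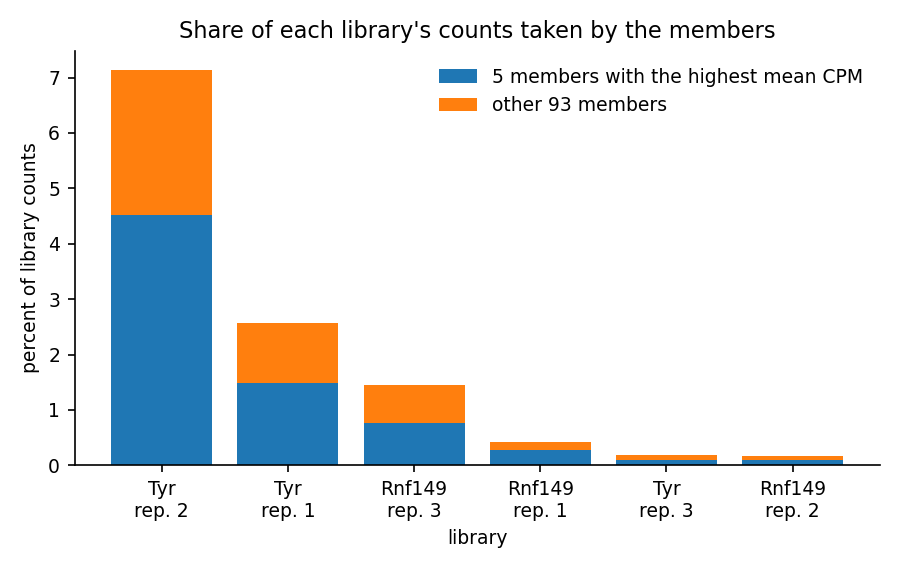
Percent of each library's counts (y axis) taken by the members in the 6 libraries (x axis), with the 5 members of highest mean CPM stacked under the other 93. The bar of Tyr replicate 2 reaches 7.13%, and the bars of the 3 low libraries stay at or under 0.428%.

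A few models supplied most of these counts. The 5 members with the highest mean CPM held 63.4% of the member counts in Tyr replicate 2, 58.0% in Tyr replicate 1 and 52.1% in CRISPR replicate 3. In the low libraries they held 63.5% in CRISPR replicate 1, 54.1% in CRISPR replicate 2 and 49.0% in Tyr replicate 3. Without these 5, the other 93 members still took 2.61%, 1.08% and 0.697% of the counts in Tyr replicate 2, Tyr replicate 1 and CRISPR replicate 3, against 0.0759% to 0.156% in the low libraries. Mean CPM ran from 10.1 to 4090 over the members, with a median of 32.0, against a median of 50.4 for all models past the CPM minimum. Of the members, 5 had a mean above 1000 CPM, 21 between 100 and 1000, and 72 below 100.

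KY.Chr1.2555, on chromosome 1, was the most counted member. It had 6122, 14611 and 259 CPM in Tyr replicates 1, 2 and 3 and 747, 284 and 2520 CPM in CRISPR replicates 1, 2 and 3. Its lowest high library, CRISPR replicate 3, stood 3.37 times above its highest low library, CRISPR replicate 1.

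KY.Chr1.2380, on the same chromosome, had 2220, 9085 and 253 CPM in the Tyr libraries and 619, 183 and 1460 CPM in the CRISPR libraries. KY.Chr9.1090, on chromosome 9, had 1814, 9429 and 85.8 CPM in the Tyr libraries and 363, 128 and 831 CPM in the CRISPR libraries. In both models Tyr replicate 2 stood more than 4 times above every other library, and CRISPR replicate 1 was the highest of the low libraries.

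KY.Chr8.323, on chromosome 8, had 2818, 6374 and 206 CPM in the Tyr libraries and 598, 181 and 1692 CPM in the CRISPR libraries. KY.Chr14.1025, on chromosome 14, had 1928, 5684 and 128 CPM and 388, 119 and 1059 CPM in the same order. KY.Chr7.983, on chromosome 7, had 927, 2102 and 121 CPM in the Tyr libraries and 151, 56.7 and 400.1 CPM in the CRISPR libraries. All 6 of these most counted members kept one order over the high libraries, with Tyr replicate 2 above Tyr replicate 1 and Tyr replicate 1 above CRISPR replicate 3.

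**Figure D2:**
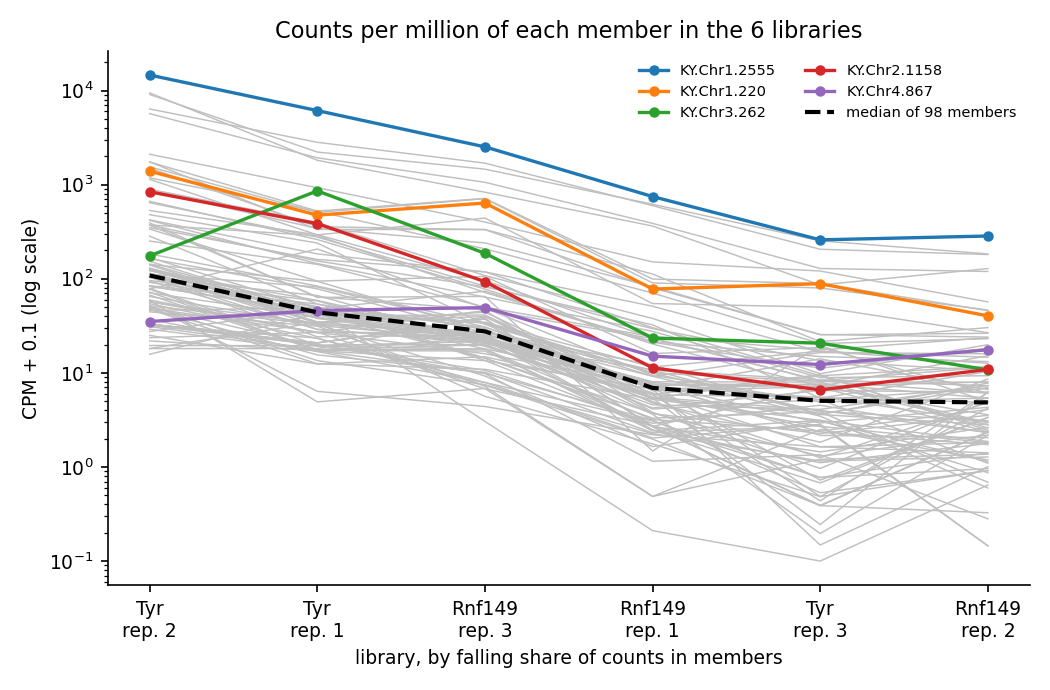
CPM plus 0.1 on a log axis (y axis) of each of the 98 members (grey lines) in the 6 libraries (x axis, by falling share of counts in members), with 5 named members in colour and the member median dashed. The median falls from 108 CPM in Tyr replicate 2 to 4.75 CPM in CRISPR replicate 2, and KY.Chr1.220, KY.Chr3.262 and KY.Chr4.867 depart from the common order among the high libraries.

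Most members shared this order. The rule did not require it, but its CPM minimum favours models with a strong peak in a single high library. Without Tyr replicate 2, 78 of the 98 members still met the rule, against 91 without Tyr replicate 1 and 97 without CRISPR replicate 3. The members lost had met the CPM minimum only through the library left out. The peaks and ratios below are therefore descriptions, in part built in by the choice of members. Tyr replicate 2 was the highest library for 84 of the 98 members (85.7%), and Tyr replicate 1 and CRISPR replicate 3 for 7 each. Among the other 8398 models past the CPM minimum, Tyr replicate 2 was the highest of the same 3 libraries in 26.4%. The peak was not particular to the members among models that varied widely between Tyr libraries. With a mean of at least 100 counts and a spread of at least 16-fold over the Tyr libraries, there were 286 models, 76 of them members. Tyr replicate 2 was the highest Tyr library in 232 of the 286, and 70 of these 232 were members. The full order of Tyr replicate 2, Tyr replicate 1 and CRISPR replicate 3 held for 66 members, and 18 had CRISPR replicate 3 in second place. The median log2 ratio of Tyr replicate 2 to Tyr replicate 1 was 1.18 over the members (2.27-fold) and -0.10 over the other models. For CRISPR replicate 3 to Tyr replicate 1, the median log2 ratio was -0.70 over the members and 0.00 over the other models. Members varied around these medians, and the log2 ratio of Tyr replicate 2 to Tyr replicate 1 lay between -2.29 and 3.59, with the middle of the members, from the lower to the upper quartile, between 0.73 and 1.79.

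The other 32 members had another order, and 14 of these did not peak in Tyr replicate 2. KY.Chr3.262, on chromosome 3, was the most counted of the 7 that peaked in Tyr replicate 1, with 858, 175 and 20.6 CPM in the Tyr libraries and 23.3, 10.7 and 186 CPM in the CRISPR libraries. Tyr replicate 2 and CRISPR replicate 3 were alike in this model, and Tyr replicate 1 stood apart from both. KY.Chr4.867, on chromosome 4, was the most counted of the 7 that peaked in CRISPR replicate 3. It had 45.8, 35.0 and 12.2 CPM in the Tyr libraries and 14.9, 17.5 and 49.3 CPM in the CRISPR libraries, so its 3 high libraries lay close together. KY.Chr13.93, on chromosome 13 and named after its values were seen, had the highest ratio of CRISPR replicate 3 to Tyr replicate 1 of all members, with 39.1 against 18.01 CPM.

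The low libraries also differed, mainly by higher levels in CRISPR replicate 1. CRISPR replicate 1 was the highest of the 3 low libraries in 65 members (66.3%), Tyr replicate 3 in 21 and CRISPR replicate 2 in 12. Among the other models past the CPM minimum, CRISPR replicate 1 was highest of these 3 in 28.1%. The median log2 ratio of CRISPR replicate 1 to CRISPR replicate 2 was 0.94 over the members (1.92-fold) and 0.02 over the other models. The median for CRISPR replicate 1 to Tyr replicate 3 was 0.95 over the members and -0.03 over the others. CRISPR replicate 2 and Tyr replicate 3, of different guides, had a median log2 ratio of -0.04 over the members, with a range from -4.29 to 4.68. Counts were low in part of the members, as 17 had fewer than 20 counts in Tyr replicate 3, 11 in CRISPR replicate 2 and 4 in CRISPR replicate 1. Only KY.Chr2.1221, on chromosome 2, was at 0 in any library, with no count in Tyr replicate 3.

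The largest gaps between the sides were in less abundant models. KY.Chr3.1525, on chromosome 3, had 38.9, 70.7 and 1.01 CPM in the Tyr libraries and 2.37, 1.67 and 24.2 CPM in the CRISPR libraries. Its lowest high library stood 10.2 times above its highest low library. KY.Chr8.744, on chromosome 8, had 45.3, 82.7 and 2.16 CPM in the Tyr libraries and 3.59, 3.44 and 33.7 CPM in the CRISPR libraries, a ratio of 9.41.

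The next largest gap was in a model of higher counts. KY.Chr2.1158, on chromosome 2, had 385, 839 and 6.48 CPM in the Tyr libraries and 11.2, 10.8 and 93.1 CPM in the CRISPR libraries, a ratio of 8.31. Over all 98 members the ratio had a median of 3.25, 20 members reached 5, and 23 lay under 2.5. Just inside the threshold were KY.Chr1.820, with 32.7 CPM in CRISPR replicate 3 and 16.3 CPM in Tyr replicate 3, and KY.Chr4.867, with 35.0 CPM in Tyr replicate 2 and 17.5 CPM in CRISPR replicate 2. Just outside it were KY.Chr1.1313, with a ratio of 1.98 (10.6 against 5.35 CPM), and KY.Chr12.758, with a ratio of 1.92 (137 against 71.1 CPM).

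The pattern was one-sided in size. With the sides exchanged, so that Tyr replicate 3 and CRISPR replicates 1 and 2 had to be high, the same rule found 2 models, 0.0235% of those past the CPM minimum. These were KY.Chr4.726 and KY.Chr4.1177, both on chromosome 4, with lowest high values of 21.8 and 16.1 CPM and highest low values of 10.7 and 6.08 CPM. Counts without a minimum ratio were nearly equal, as 705 models (8.30%) had the 3 high libraries above the 3 low ones and 704 (8.29%) had the reverse. At a ratio of 1.5 the counts were 184 and 7, at 3 they were 52 and 0, and at 4 they were 32 and 0. Applied to the labelled groups, the rule found 15 models higher in CRISPR libraries (0.177%) and 13 lower (0.153%). The crossing assignment was picked from the measured values and the labelled one was not, so these counts are set side by side as descriptions.

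**Figure D3:**
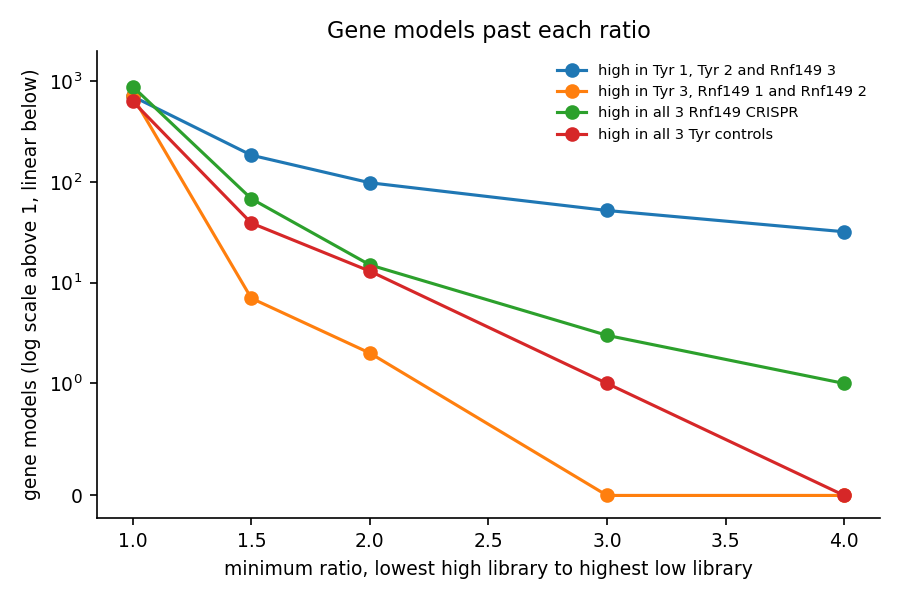
Number of gene models with a mean of at least 10 CPM (y axis, log scale above 1) whose lowest high library stood at least the given ratio (x axis) above the highest low library, for 4 assignments of the libraries. The 4 lines start between 628 and 881 models, and at a ratio of 2 the line for the members stands at 98 and the others at 2, 13 and 15.

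Some members shared one shape over the 6 libraries. Shape was compared on log2(CPM + 0.1) after each model's mean was subtracted, and a pair was called alike when it differed by at most 0.3 in every library, a tolerance chosen after the data were seen. Of 4753 pairs of members, 27 were alike, and they joined 26 members into 9 sets of 2 to 5 models, while the other 72 were in no set. Pairs outside the members were not counted. The largest set held KY.Chr1.220, KY.Chr1.2596, KY.Chr5.297, KY.Chr6.93 and KY.Chr10.1157, which lie on chromosomes 1, 5, 6 and 10. In this set CRISPR replicate 3 stood above Tyr replicate 1, against the common order.

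KY.Chr6.93 had 524, 1740 and 88.8 CPM in the Tyr libraries and 99.2, 45.7 and 714 CPM in the CRISPR libraries. KY.Chr10.1157 had 506, 1547 and 79.7 CPM and 90.2, 46.4 and 709 CPM in the same order. KY.Chr1.220 had 474, 1388 and 88.5 CPM and 77.6, 40.2 and 638 CPM. The levels of KY.Chr10.1157 lay within 0.3 on the log2 scale of those of KY.Chr1.220 and of KY.Chr6.93 in every library, so reads shared between near-identical copies cannot be told apart from similar levels, and these 3 models are uncertain as separate genes.

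The remaining models of that set had the same shape at other levels. KY.Chr5.297 had 292, 1137 and 49.9 CPM in the Tyr libraries and 54.4, 26.6 and 441 CPM in the CRISPR libraries. KY.Chr1.2596 had 33.4, 128 and 7.01 CPM and 6.34, 3.48 and 44.1 CPM. Mean CPM in the set spanned 14.4-fold, and CRISPR replicate 3 held between 19.8% and 23.8% of each model's summed CPM.

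A second set of shape joined the most counted member, KY.Chr1.2555, with KY.Chr1.2557, KY.Chr2.1323 and KY.Chr7.159. KY.Chr1.2557 lies 2 numbers from KY.Chr1.2555 and had 519, 1181 and 20.4 CPM in the Tyr libraries and 70.4, 23.0 and 208 CPM in the CRISPR libraries. Mean CPM in this set spanned 274-fold, from 14.9 to 4090, while Tyr replicate 2 held between 57.9% and 60.4% of each model's summed CPM. CRISPR replicate 3 held between 8.71% and 10.5%, less than in the set of KY.Chr1.220. The members thus had more than one profile over the libraries, which the common order of the high libraries does not show.

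**Figure D4:**
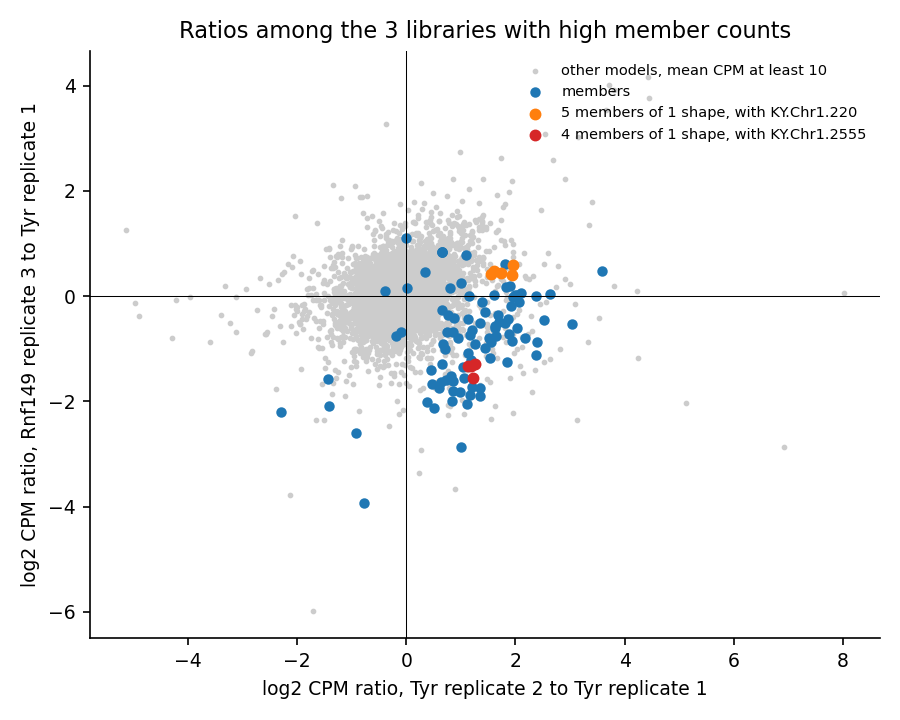
Log2 CPM ratio (0.1 CPM added) of Tyr replicate 2 to Tyr replicate 1 (x axis) and of CRISPR replicate 3 to Tyr replicate 1 (y axis) for each model with a mean of at least 10 CPM. Members (blue) spread over both ratios, the set of KY.Chr1.220 (5 models, orange) lies above 0 on the y axis and the set of KY.Chr1.2555 (4 models, red) below it.

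Some models on unassigned contigs were nearly identical in counts. KY.UAContig32.25, KY.UAContig38.14 and KY.UAContig41.7 differed by at most 1 count in any library, and the last 2 had the same count in all 6. Each had 20.7, 32.8 or 32.9, and 0.288 CPM in Tyr replicates 1, 2 and 3, and 2.59, 2.26, and 37.3 or 37.4 CPM in CRISPR replicates 1, 2 and 3. KY.Chr9.540 and KY.UAContig52.2 also had the same level within 0.3 in every library, with 123 and 129 CPM in Tyr replicate 2. In all, 8 members in 3 groups had such a partner, and counting each group as 1 model leaves 93. No model outside the members (0) had the level of a member within that tolerance. For members well past the thresholds, such a model would itself have passed the rule, so the selection fixed this count in part.

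The members differed in the order of CRISPR replicate 3 and Tyr replicate 1. This is a cut in a graded ratio, as members lay near equality on both sides. The log2 ratio was -0.003 in KY.Chr13.81 and 0.003 in KY.Chr2.948. CRISPR replicate 3 was above Tyr replicate 1 in 25 members, which included all 8 models with a partner of the same level and 5 of the 6 members on contigs. Counting each group of such partners as 1 model leaves 20 of the 25, but the shares that follow count each partner separately. Among these 25, Tyr replicate 3 stood above CRISPR replicate 1 in 10 (40%) and above CRISPR replicate 2 in 16 (64%). Among the other 73, it did so in 12 (16.4%) and 34 (46.6%). The 25 models took 0.777% of the counts in Tyr replicate 2, 0.242% in Tyr replicate 1 and 0.329% in CRISPR replicate 3. The 73 took 6.35%, 2.33% and 1.12% in the same libraries.

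Members lay on 13 of the 14 numbered chromosomes and on contigs. Chromosome 1 held 14 of its 1112 models past the CPM minimum (1.26%), chromosome 3 held 11 of 836 (1.32%), and chromosomes 13 and 14 held 4 of 224 (1.79%) and 8 of 449 (1.78%). Chromosome 12 held 0 of 477. Contigs held 6 of 120 (5%), and 3 of these 6 were the near-identical models above. Of the 98 members, 4 had a member as a consecutively numbered neighbour, in 2 pairs. Members a few numbers apart, such as KY.Chr1.2555 and KY.Chr1.2557, were not counted as neighbours, so looser grouping was not measured. Of 88 consecutively numbered neighbours past the CPM minimum, 4 (4.55%) were members themselves, against 1.15% of all such models. Among the 84 neighbours that were not members, 6 (7.14%) had the high libraries above the low ones, against 7.23% of the models away from members. The median log2 ratio of Tyr replicate 2 to Tyr replicate 3 was -0.03 in these neighbours and -0.13 in the models away from members.

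Both neighbouring pairs were of modest level. KY.Chr14.233 had 19.6, 78.6 and 3.99 CPM in the Tyr libraries and 4.47, 7.23 and 19.9 CPM in the CRISPR libraries. KY.Chr14.234 had 15.4, 47.7 and 2.64 CPM in the Tyr libraries and 2.21, 0.0452 and 10.03 CPM in the CRISPR libraries. They shared the high libraries, but KY.Chr14.233 was highest among the low libraries in CRISPR replicate 2, where KY.Chr14.234 had a single count. The other pair, KY.Chr5.786 and KY.Chr5.787 on chromosome 5, had 44.4 and 56.2 CPM in Tyr replicate 2 and 2.40 and 5.38 CPM in Tyr replicate 3.

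The study's comparison asked which transcripts differ after mutagenesis of Rnf149. The edgeR test called 0 of the 98 members at an adjusted p under 0.05, against 7 of 13789 models tested (0.0508%), and DESeq2 called 2 of the 98, against 3.61% of all models. The rule used these same libraries and makes the guide groups overlap in every member, so these counts are descriptions. At an unadjusted edgeR p under 0.05 there were 4 of the 98 members, and 11.5% of all models tested. The 7 calls over all models became 60 without CRISPR replicate 3, 12 without Tyr replicate 3 and 1 without Tyr replicate 2, CRISPR replicate 1 or CRISPR replicate 2, and the members held 0 calls in each of these fits. By the fitted fold change, 97 of the 98 were lower in CRISPR libraries (52.4% of all models), and 86 were lower by more than 1 on the log2 scale (7.83% of all models). Their median log2 fold change was -2.23, against -0.02 over all models, with a median standard error of 1.44 against 0.32. The rule places 2 of 3 Tyr libraries and 1 of 3 CRISPR libraries on the high side, so the choice of members favours a lower mean in CRISPR libraries, though it does not force one.

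Each guide group holds libraries of both sides, so the rule fixes a spread of at least 2-fold within each group, and the spreads are given as a description. In the median member, the highest Tyr library stood 33.7-fold above the lowest, and the highest CRISPR library 8.32-fold above the lowest. For the other tested models past the CPM minimum, the same medians were 1.38-fold and 1.29-fold. In KY.Chr1.2555 the mean was 6997 ± 7216 CPM over the Tyr libraries (SD, n = 3) and 1184 ± 1180 CPM over the CRISPR libraries (SD, n = 3). Its log2 fold change was -2.63 (SE 1.62, edgeR adjusted p = 0.614). KY.Chr5.786 had the lowest unadjusted p of the members, with 31.2, 44.4 and 2.40 CPM in the Tyr libraries and 0.386, 1.09 and 7.08 CPM in the CRISPR libraries (log2 fold change -3.24, SE 1.22, edgeR adjusted p = 0.390). KY.Chr2.1221 was next, with 46.6, 27.4 and 0 CPM and 0.110, 0.543 and 2.95 CPM (log2 fold change -4.38, SE 1.64, edgeR adjusted p = 0.395). In both, Tyr replicate 3 lay under CRISPR replicate 3, so the guide groups overlapped.

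DESeq2 called KY.Chr1.820 and KY.Chr2.168, with DESeq2 adjusted p of 0.0476 and 0.0405. KY.Chr1.820 had 239, 479 and 16.3 CPM in the Tyr libraries and 9.10, 15.8 and 32.7 CPM in the CRISPR libraries, with an edgeR adjusted p of 0.419. KY.Chr2.168 had 6.26, 52.0 and 1.54 CPM in the Tyr libraries and 2.10, 1.31 and 4.29 CPM in the CRISPR libraries. Tyr replicate 2 thus stood far above every other library in KY.Chr2.168, and its edgeR adjusted p was 0.468. KY.Chr13.93 was the member with a fold change above 0 (log2 0.19, SE 0.79, edgeR adjusted p = 0.958).

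**Figure D5:**
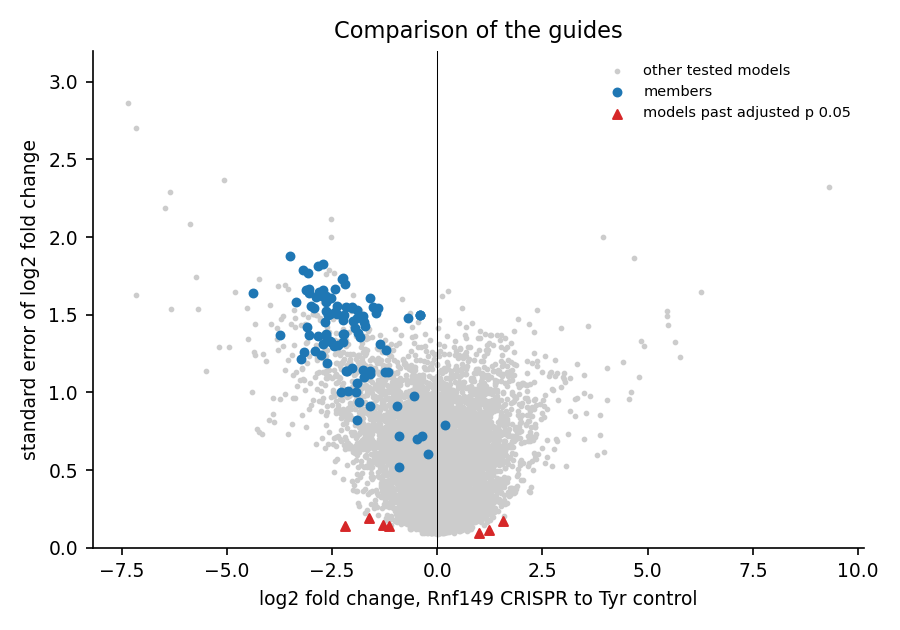
Log2 fold change of CRISPR to Tyr libraries (x axis) and its standard error (y axis) in the edgeR fit for each tested model. The members (blue) have a median log2 fold change of -2.23 and a median standard error of 1.44, and the 7 models past the threshold (red triangles) have small standard errors.

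The median ratio between the guides had opposite signs on the high and the low side. Means here are means of log2 CPM, not of CPM. On the high side, CRISPR replicate 3 stood above the mean of Tyr replicates 1 and 2 in 8 of the 98 members (8.16%), against 57.2% of the other models. The median log2 ratio was -1.36 (0.05 over the other models). On the low side, the mean log2 CPM of CRISPR replicates 1 and 2 stood above that of Tyr replicate 3 in 65 members (66.3%), against 45.9% of the other models. The median log2 ratio was 0.55 (-0.04 over the other models). The sides come from the same counts and hold 1 library of one guide each, so no test was made. Members that met the CPM minimum only through Tyr replicate 2 can also lower the ratio on the high side.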

How the data were processed

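The authors deposited raw read counts per gene model, whole numbers without normalization, in 1 table of 17822 KY2019 models and 6 columns, matched to samples by title. The submitters' processing notes name STAR 2.7.0a, featureCounts, Subread and DESeq2. Genome build, strand setting and the handling of reads that match several places are not given there, and such reads would touch near-identical models.

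Members were found on CPM over column totals (18127682 to 22115917 counts), in Python 3.11.15. The guide comparison ran over the whole table in R 4.3.3 with edgeR 4.0.16 (filterByExpr, TMM, robust glmQLFit, 2-sided glmQLFTest, Benjamini-Hochberg over 13789 models, threshold 0.05), with DESeq2 1.42.0 on the same filtered models as an alternative. The standard error is the log2 fold change divided by the square root of F. Log2 ratios add 0.1 CPM.

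Members, lists and rules were chosen with earlier results of these data known. Named models were the 6 most counted, the 6 with the largest ratio, the most counted one peaking in each high library, the longest run of consecutive numbers, the 2 lowest guide p and the 2 on each side of the ratio threshold. Others, such as the shape sets, were named after their values were seen. The labels do not say whether replicates came from separate embryo pools, so the spread behind each p-value may be technical. The scripts were tested on simulated data.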

Additional observations from a re-analysis of the deposited data

How the results depend on the processing

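The member count of 98 was 184 at a ratio of 1.5, 52 at a ratio of 3, 200 at a mean of 1 CPM, 34 at a mean of 50 CPM and 95 with TMM-scaled totals. In the same order, the share of Tyr replicate 2 was 10.4%, 2.9%, 7.24%, 6.66% and 7.08%, and the members next to a member were 10, 0, 17, 0 and 4. Leaving out 1 library gave 93 to 203 models, a share of 7.20% to 10.4% and 0 to 18 models next to another. Of these sets, the one without Tyr replicate 2 kept 78 of the 98 members and the one without CRISPR replicate 3 kept 97. With a mean of at least 50 CPM, Tyr replicate 2 was the highest of the high libraries in 94.1% of models, and CRISPR replicate 1 the highest of the low ones in 85.3%. Counting each of the 3 groups joined by pairs of the same level (within 0.3) as 1 model left 93 members. It gave 87.1% and 65.6% for these shares, and was an alternative chosen after seeing the data. With TMM-scaled totals, the median guide ratios were -1.41 on the high and 0.56 on the low side.

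The 7 calls over all models were 497 with DESeq2, 66 at an adjusted p under 0.1, 21 with the member share as a covariate, 10 without the member rows, and 1 to 60 with 1 library left out. The calls among members were 2 with DESeq2 and 0 in every other fit. With the replicate block there were 0 calls over all models and 0 among members. The correlations of same-numbered libraries, after subtraction of their group's mean, were -0.033, -0.123 and -0.270 for replicates 1, 2 and 3. They cannot decide whether the numbers pair libraries, since deviations from the mean of so few libraries depend on each other. The causes were not tested. Of 247 guide effects recomputed for the 19 named members, 23 changed sign, and KY.Chr1.820 passed the threshold with DESeq2 alone. The covariate is built from the members' own counts, so its fit centres their guide effects near 0 by construction, and its sign changes say nothing about the guide. With it, log2 fold changes above 0 were 0.034 for KY.Chr1.2555, 0.24 for KY.Chr9.1090, 0.20 for KY.Chr8.323, 0.13 for KY.Chr14.1025, 0.41 for KY.Chr3.1525, 0.48 for KY.Chr8.744, 2.14 for each of the KY.UAContig32.25, KY.UAContig38.14 and KY.UAContig41.7 models, 0.50 for KY.Chr4.867 and 0.16 for KY.Chr14.233. With 1 library left out, the effect ran from -2.92 to 0.42 for KY.UAContig32.25, from -2.93 to 0.42 for KY.UAContig38.14 and KY.UAContig41.7, and from -0.94 to 0.13 for KY.Chr4.867. In 17 members Tyr replicate 3 held fewer than 20 counts, which limits the precision of ratios to that library.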
